A study of Homo sapiens with 4 samples.

Results

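The genes described here encode the proteins of the small subunit of the cytosolic ribosome, in the MYCN-amplified human neuroblastoma line KELLY. Members were the gene symbols that start with RPS followed by a number and, where present, A, X or L, together with RPSA and FAU. Pseudogenes were left out. This gave 33 genes of 28063 in the tables, and all 33 passed the count filter, as did 14141 genes in all. The cells carried a lentiviral, FLAG-tagged IWS1, either wild type (WT) or the M3 form, in which the motif TIM3 is disrupted, and both groups were selected with 1 ug/ml puromycin. IWS1 is a transcription elongation factor, and a TIM is a short motif through which such factors bind TFIIS N-terminal domains. Removal of the cells' own IWS1 is not mentioned in the labels. Each group had 2 libraries of poly(A) RNA, called WT 1, WT 2, M3 1 and M3 2 after the replicate numbers, and nothing says that they came from separate cultures, so the tests see no more than the spread among these libraries, which may be technical.

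The small subunit binds the mRNA, scans it for the start codon and checks each codon against its tRNA. Its proteins sit on 1 ribosomal RNA in a head and in a body with a platform, and are needed in about equal numbers, so their genes are known for being expressed together at a high level. Their mRNAs usually begin with a C followed by a run of pyrimidines, the terminal oligopyrimidine (TOP) tract, through which mTOR signalling and the protein LARP1 control their translation and stability. MYC family proteins, MYCN among them, are known to raise the expression of ribosomal protein genes.

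The tract is shown here for members at both ends of the order of change described below. Each line gives 15 bases before and 15 bases from the gene start in RefSeq (GRCh38.p14), 5′ to 3′, with the longest run of at least 6 C or T that reaches within 10 bases of the start in capitals.
RPS27A (chr2:55231888-55231917, + strand): taaggagtgacacacaagacccagactctt
RPS29 (chr14:49598696-49598725, - strand): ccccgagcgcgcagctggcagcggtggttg
RPS10 (chr6:34426055-34426084, - strand): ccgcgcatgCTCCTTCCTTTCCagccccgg
RPS23 (chr5:82278340-82278369, - strand): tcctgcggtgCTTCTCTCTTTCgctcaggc
RPS14 (chr5:150449725-150449754, - strand): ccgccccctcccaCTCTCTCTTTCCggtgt
RPSA (chr3:39406705-39406734, + strand): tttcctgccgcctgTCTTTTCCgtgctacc
FAU (chr11:65122120-65122149, - strand): cgccctcgCTTCTTCCTCTTTCTCgactcc
RPS19 (chr19:41860240-41860269, + strand): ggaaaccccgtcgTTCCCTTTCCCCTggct
RPS27L (chr15:63157463-63157492, - strand): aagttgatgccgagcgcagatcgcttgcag
RPS9 (chr19:54200843-54200872, + strand): gtggcgcttccgcgCCTCTTTCTCagtgac
RPS26 (chr12:56041903-56041932, + strand): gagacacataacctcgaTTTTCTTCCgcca

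A start window was given for 26 of the 33 members, and 22 of the 26 (84.6%) held such a run, beside 31.1% of 35116 windows of all genes. The windows of RPS27A, RPS29, RPS4X and RPS27L held none, which says only that the letters are not near the RefSeq start, since a gene can have other starts. Runs stood both in members that changed much, such as RPS10 and RPS23, and in members that changed little, such as RPS9 and RPS26. In the 300 bases from 250 before to 50 after the start, the ETS-type motif CCGGAAG (either strand) was found in 10 of 26 members (38.5%) and in 10.3% of all windows. The YY1-type motif AAGATGGC was in 3 members (11.5%) and 2.9% of all windows, the SP1-type motif GGGCGG in 16 (61.5%) and 45.0%, and TATAAA in 2 (7.7%) and 11.5%, each on either strand. These are matches of letters, and no binding was measured.

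The libraries held 13645171 and 20962372 gene counts in WT and 12289685 and 13581628 in M3. All 9 markers of noradrenergic neuroblastoma cells that were looked up, among them MYCN, PHOX2A, HAND2, GATA3, TH, DBH and ISL1, were detected in every library. Of the 9, 4 were lower in M3 (44.4%, beside 6.63% of all tested genes), PHOX2A, DBH and TH among them. In all 9 both M3 libraries lay below both WT libraries, beside 34.1% of all tested genes. After the length and GC correction described below 2 were lower, beside 2.76% of all genes in that fit. The 9 markers summed to 6411, 6118, 4971 and 5008 CPM in WT 1, WT 2, M3 1 and M3 2. Of 10 markers of blood, epithelial, stromal, endothelial and glial cells, S100B had no reads, PTPRC and PECAM1 had at most 2, and the 10 together summed to 37.4 CPM (reads scaled to library size, here with TMM factors) in WT 1, 14.9 in WT 2, 19.2 in M3 1 and 19.9 in M3 2. WT 1 was thus the highest library for this sum, with COL1A1 (16.9 CPM), COL1A2 (8.73) and KRT19 (5.61) its largest parts there. Single markers differed: CD68 was highest in WT 2 (3.04 CPM), EPCAM in M3 1 (0.857) and SOX10 in M3 2 (1.56). WT 1 was also the highest library for every small-subunit gene, which summed to 52712 CPM there and 37386 in WT 2. The part of other cells in the results was not tested. IWS1 itself was at 382 ± 16.6 CPM (SD, n = 2) in WT and 598 ± 1.93 in M3, where vector and cellular copies may be counted together.

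Small-subunit genes took 4.82% of all gene counts in WT 1 (658215 reads), 3.75% in WT 2 (787054 reads), 2.62% in M3 1 (322260 reads) and 2.92% in M3 2 (396966 reads). Both M3 libraries lay below both WT libraries, but the WT libraries also lay apart from each other. The group means were 4.29% ± 0.756 (SD, n = 2) in WT and 2.77% ± 0.213 in M3, so the M3 share was 0.646 of the WT share. Exact (Clopper-Pearson) 95% binomial intervals, which cover counting error only, were 4.81% to 4.84% in WT 1, 3.75% to 3.76% in WT 2, 2.61% to 2.63% in M3 1 and 2.91% to 2.93% in M3 2. The differences between libraries of a group were therefore far larger than counting error. With 2 libraries a group, the smallest p of an exact two-sided permutation test is 0.333, and no test was run on the share itself. In bulk RNA, and with reads scaled to the library, a lower share cannot be told apart from more RNA of other genes.

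The large subunit moved by the same proportion. Its 50 genes took 7.69%, 6.001%, 4.17% and 4.60% of gene counts in WT 1, WT 2, M3 1 and M3 2. The ratio of small-subunit to large-subunit counts was 0.627 in WT 1, 0.626 in WT 2, 0.628 in M3 1 and 0.635 in M3 2. While the shares ranged widely over the 4 libraries, this ratio stayed within a narrow band.

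**Figure D1:**
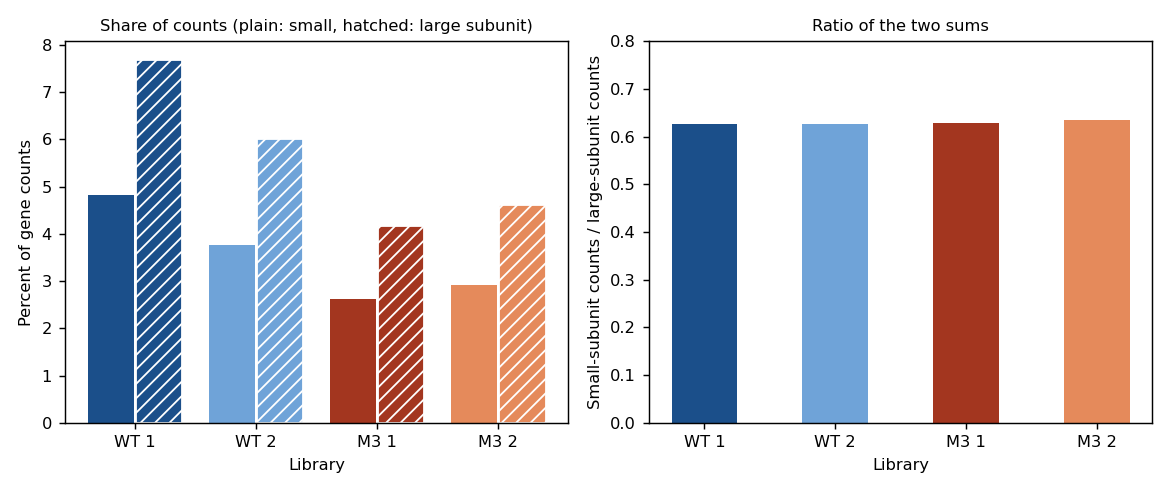
The left bars give the share of gene counts (percent) taken by small-subunit genes (plain) and large-subunit genes (hatched) in each library, and the right bars the ratio of the 2 sums. Shares are highest in WT 1 (4.82% and 7.69%) and lowest in M3 1 (2.62% and 4.17%), while the ratio lies between 0.626 and 0.635.

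Gene by gene, M3 was compared with WT by edgeR's quasi-likelihood test over all genes, on counts scaled by TMM (a trimmed mean that makes most genes unchanged on average), with Benjamini-Hochberg adjustment and a threshold of 0.05. Of the 33 small-subunit genes 24 were lower in M3, beside 6.63% of all 14141 tested genes, and none was higher, beside 9.16% of all genes. The median log2 fold change was -0.74, beside -0.01 for all tested genes, and all 33 values were below 0. The median member was 1.67-fold higher in WT. In 30 of the 33 genes both M3 libraries lay below both WT libraries, beside 34.1% of all tested genes. The exceptions were RPS27L, RPS9 and RPS26.

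The libraries fell in 1 order for nearly all members. WT 1 exceeded WT 2 in 33 of 33 genes, and over 32 of them the median was 1.40-fold (1.21 to 1.71). M3 2 exceeded M3 1 in 32 of 33, with a median of 1.12-fold over the same 32 genes. The order WT 1, WT 2, M3 2, M3 1 from highest to lowest held in 30 members and in 18.4% of all tested genes. The median of WT 2 over M3 2, the nearest libraries of the 2 groups, was 1.32-fold over these 32 genes. The step between the WT libraries was thus about as large as the step between the groups' nearest libraries. Without WT 1 the median log2 fold change was -0.48, without M3 1 it was -0.67 and without M3 2 it was -0.82. The number of genes passing differed widely between these fits, both among the members and over all tested genes. Each such fit takes the spread from the group that still has 2 libraries and assumes it for the lone one.

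**Figure D2:**
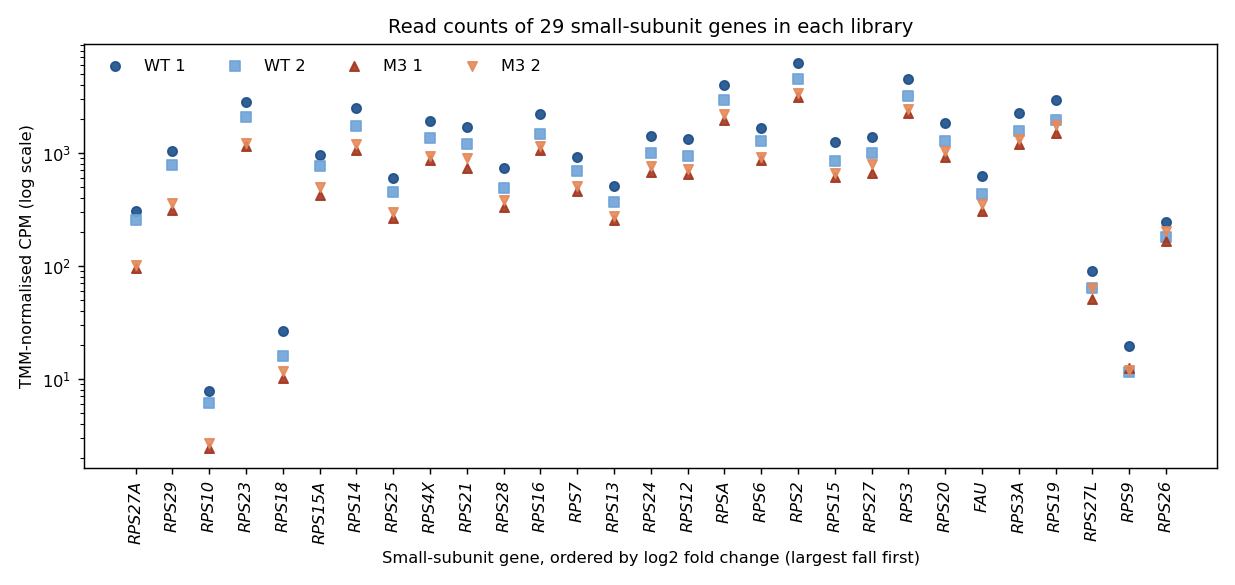
Each column is 1 of 29 small-subunit genes and each point its TMM-normalised CPM in 1 library (log scale), ordered by log2 fold change. WT 1 (dark circles) is the top point in every gene drawn, and M3 1 and M3 2 (triangles) lie below both WT libraries in all of them but RPS27L, RPS9 and RPS26.

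Proteins of the head form the part of the subunit that swivels while tRNAs move. Of 14 head genes 11 were lower in M3, with a median log2 fold change of -0.77. Of 18 genes of the body and platform 13 were lower, with a median of -0.73. Proteins with relatives in bacteria (11 of 15 lower, median -0.74) and those found in eukaryotes and archaea or eukaryotes alone (13 of 17 lower, median -0.74) had equal medians. The share that was lower was 72.2% to 78.6% in these groups, near the 72.7% of all 33 members, beside 6.63% of all tested genes. No test of a difference between these groups was run.

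Among head genes RPS27A had the largest fall of a gene that passed. It encodes ubiquitin fused to a protein of the beak of the head, and the fusion is cut to release both (chr2:55231903-55235853). RPS27A was at 307 CPM in WT 1, 253 in WT 2, 96.3 in M3 1 and 102 in M3 2, from 3834, 5333, 1236 and 1431 reads. The M3 libraries lay close together and far below both WT libraries. The WT level was 2.83-fold that of M3 (log2 fold change -1.50 ± 0.13 SE, edgeR adjusted p = 0.0185). Of 3 other ubiquitin genes 2 were lower (66.7%, beside 6.63% of all tested genes), among them the polyubiquitin gene UBB (-0.65 ± 0.15). After the length and GC correction described below none of the 3 was lower, beside 2.76% of all genes in that fit.

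RPS29 encodes a small zinc-binding protein of the head (chr14:49570988-49598710). It was at 1048 CPM in WT 1, 783 in WT 2, 314 in M3 1 and 362 in M3 2, and the groups lay apart. The log2 fold change was -1.44 ± 0.17 (SE; edgeR adjusted p = 0.0185), 2.71-fold higher in WT. RPS10, a beak protein near the mRNA entry, was at 7.77 and 6.03 CPM in WT 1 and WT 2 and 2.42 and 2.70 in M3 1 and M3 2. These levels rest on 97, 127, 31 and 38 reads, and 39.4% of the exonic bases of RPS10 lie in the read-through gene RPS10-NUDT3, which was counted at 0 in every library. Its log2 fold change was -1.42 ± 0.27 (SE; edgeR adjusted p = 0.0224). RPS27A, RPS29 and RPS10 passed with each library left out in turn and after removal of the trends on transcript length and GC content described below, where they were at -1.34, -1.33 and -1.02.

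RPS18, whose protein reaches toward the large subunit, was at 26.2 and 15.9 CPM in WT 1 and WT 2 and 10.1 and 11.6 in M3 1 and M3 2 (log2 fold change -0.94 ± 0.24 SE, edgeR adjusted p = 0.0385). WT 2 lay nearer to the M3 libraries than to WT 1. The head genes RPS28 near the mRNA exit (-0.76), RPS16, whose tail reaches the peptidyl site (-0.75), RPS12 of the beak (-0.73), RPS15, whose tail reaches the decoding site (-0.71), RPS20 (-0.68) and RPS25, which some viral mRNAs need for entry without a cap (-0.89), all passed. RPS3 and RPS19 did not pass in the edgeR fit. RPS3 lines the mRNA entry and also serves in DNA repair, and was at 4501, 3156, 2249 and 2467 CPM in WT 1, WT 2, M3 1 and M3 2 (-0.70 ± 0.21 SE; edgeR adjusted p = 0.0538). RPS19, the gene most often mutated in Diamond-Blackfan anaemia, was at 2966, 1936, 1497 and 1760 CPM (-0.59 ± 0.22; edgeR adjusted p = 0.0948). For both genes the M3 libraries lay below the WT libraries, and M3 2 was close to WT 2 for RPS19. DESeq2 called both, with DESeq2 adjusted p = 0.000794 and 0.0121. DESeq2 called more genes lower than edgeR did, 1147 of 12029 genes and 29 of the 33 members.

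In the body, RPS23 fell most. Its protein lies in the decoding centre (chr5:82273320-82278354), and its gene was at 2847 CPM in WT 1, 2086 in WT 2, 1159 in M3 1 and 1215 in M3 2. The groups lay apart, with a log2 fold change of -1.06 ± 0.19 (SE; edgeR adjusted p = 0.0211) and a 2.08-fold higher level in WT. RPS15A was at 955, 766, 422 and 501 CPM in WT 1, WT 2, M3 1 and M3 2 (-0.90 ± 0.16; edgeR adjusted p = 0.0215). RPS14, a platform protein whose gene is lost in the 5q deletion of myelodysplastic syndrome, was at 2477, 1724, 1065 and 1190 CPM (-0.90 ± 0.20; edgeR adjusted p = 0.0290). In RPS14 the step from WT 1 to WT 2 exceeded that from WT 2 to M3 2 in CPM.

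RPS4X, an X-linked body gene, was at -0.87, RPS21 at -0.81, RPS7, whose protein can bind MDM2, at -0.74, RPS13 at -0.74, RPS24 at -0.73 and RPS6, the substrate of the S6 kinases, at -0.72. All 6 passed. RPSA, also known as a laminin receptor, was at 3975, 2943, 1967 and 2215 CPM in WT 1, WT 2, M3 1 and M3 2 (-0.73 ± 0.20; edgeR adjusted p = 0.0431). FAU encodes a ubiquitin-like peptide fused to a protein near the mRNA entry, and was at 619, 432, 305 and 354 CPM in the same order (-0.67 ± 0.18; edgeR adjusted p = 0.0417). In FAU 22.6% of exonic bases are shared with the neighbouring genes MRPL49 and SYVN1. In both genes the groups did not overlap, and WT 2 lay nearer to the M3 libraries than to WT 1.

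RPS2, which had the most reads of all members, was at 6214, 4463, 3095 and 3392 CPM in WT 1, WT 2, M3 1 and M3 2. Its log2 fold change of -0.72 ± 0.21 (SE) missed the threshold (edgeR adjusted p = 0.0521), although the groups did not overlap. RPS3A, a platform protein, was at 2276, 1569, 1203 and 1325 CPM (-0.60 ± 0.20; edgeR adjusted p = 0.0679). DESeq2 called both genes. The estimate of RPS2 lay among those of members that passed in edgeR. RPS3A fell less than any of these, whose smallest fall was -0.67.

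The 3 genes whose groups overlapped were the least changed. RPS26, which contacts mRNA at the exit channel, was at 245 CPM in WT 1, 179 in WT 2, 164 in M3 1 and 202 in M3 2, with M3 2 above WT 2. Its log2 fold change was -0.21 ± 0.17 (SE; edgeR adjusted p = 0.406), and it was 0.03 without WT 1. RPS9, a body protein near the mRNA entry, was at 19.5, 11.4, 12.4 and 11.9 CPM in WT 1, WT 2, M3 1 and M3 2, with WT 2 the lowest (-0.33 ± 0.25; edgeR adjusted p = 0.362). Without WT 1 its log2 fold change was 0.08. RPS27L, a paralog of RPS27, was at 90.7, 63.0, 50.9 and 64.1 CPM (-0.41 ± 0.19; edgeR adjusted p = 0.158). RPS27 itself was at 1376, 1001, 659 and 801 CPM and passed (-0.70 ± 0.19; edgeR adjusted p = 0.0413). The difference between the 2 paralogs was not tested. RPS10, RPS9 and RPS18 had 31 to 335 reads in a library, while RPS2 had up to 93950, so their estimates rest on less data. Why these 3 genes have few reads was not tested.

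**Figure D3:**
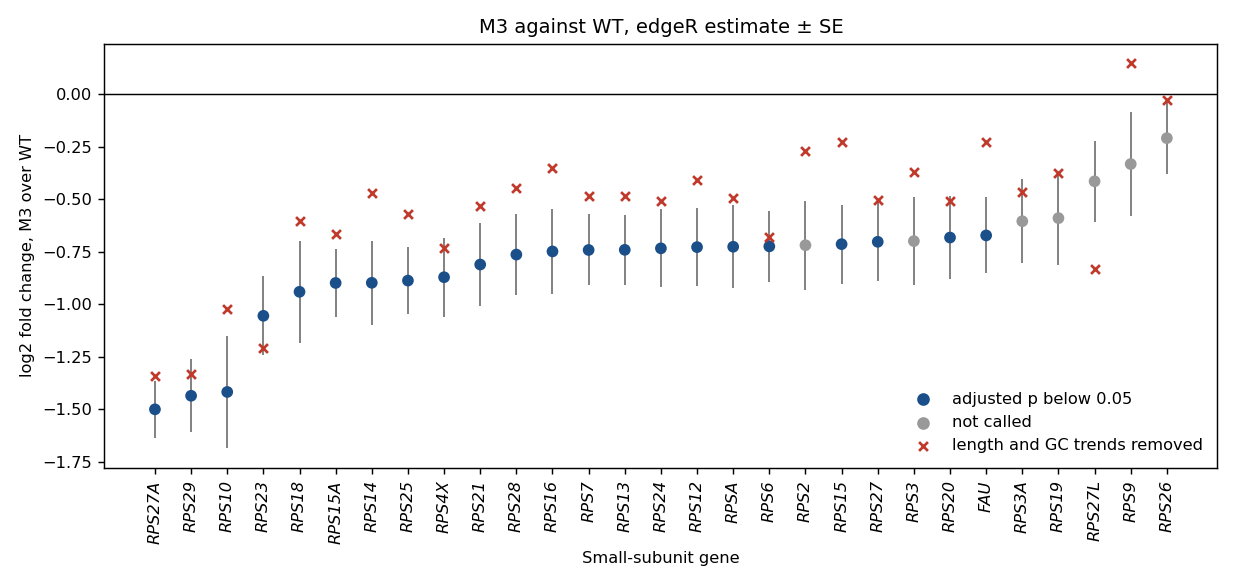
Points give the edgeR log2 fold change of M3 over WT for 29 small-subunit genes with its standard error, filled blue where the adjusted p was below 0.05 and grey where it was not, and crosses give the value after removal of the length and GC trends. Of the genes drawn, RPS27A, RPS29 and RPS10 stand lowest (-1.50, -1.44 and -1.42), and most genes lie between -0.94 and -0.67.

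A second fit asked which members moved more or less than the group, with each library scaled to its summed small-subunit count. Of the 33 genes 2 were lower in M3 relative to that sum, beside 0.134% of all tested genes. None was higher, beside 39.6% of all genes. Because the members fell, this scaling put the median of all tested genes at 0.71. It thus makes lower calls rare and higher calls common among all genes, so neither share shows that the members stand out. The many higher genes also make the Benjamini-Hochberg adjustment milder for the members. The 2 were RPS29 (-0.69 ± 0.22 SE; edgeR adjusted p = 0.00924) and RPS27A (-0.76 ± 0.29; edgeR adjusted p = 0.0310). RPS29 took 1.99% and 2.09% of small-subunit counts in WT 1 and WT 2 and 1.25% and 1.29% in M3 1 and M3 2. RPS27A took 0.582% and 0.678% in WT and 0.384% and 0.360% in M3. For both genes the part of the total was lower in M3 even though WT 1 and WT 2 differed in the total itself. Neither passed without M3 1 (adjusted p = 0.610 and 0.616), without M3 2 (0.333 and 0.457) or with the replicate number as a block (0.188 and 0.273), though in those fits the estimates lay between -0.81 and -0.67.

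RPS10 had a similar relative estimate (-0.69 ± 0.44) from few reads and did not pass. RPS26 went the other way: it took 0.464% and 0.478% of small-subunit counts in WT 1 and WT 2 and 0.655% and 0.716% in M3 1 and M3 2, a relative log2 fold change of 0.54 ± 0.28 (SE; edgeR adjusted p = 0.112). It passed as higher only without WT 1 (0.52, adjusted p = 0.0497) or without WT 2 (0.56, adjusted p = 0.0139), where the spread comes from the M3 pair alone. RPS9 (0.44 ± 0.35) and RPS27L (0.34 ± 0.31) did not pass. For the remaining genes the fit gave no call.

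**Figure D4:**
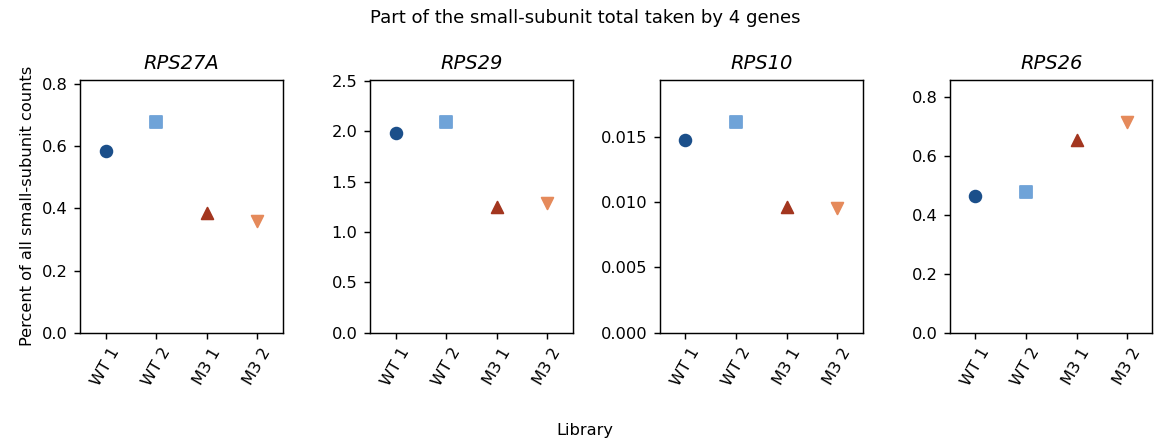
Each panel gives 1 gene's part of all small-subunit counts (percent) in each library, with its own scale from 0. RPS27A, RPS29 and RPS10 are lower in both M3 libraries, and RPS26 is higher in both (0.655% and 0.716% beside 0.464% and 0.478%).

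Small-subunit transcripts are short, and short transcripts were lower in M3 across the genome. The transcripts chosen from GENCODE 29 had a median of 712 nt for members and 2903 nt for tested genes. Across 13665 tested genes Spearman's rho between length and log2 fold change was 0.50, a description over genes that share 4 libraries. Within the members rho was 0.25 with transcript length, 0.07 with coding length (168 to 885 nt), 0.10 with GC content and -0.15 with the number of annotated pseudogenes (n = 33 genes each). With a trend on length and GC content taken out of every library, the members' median was -0.48, and 10 of 33 were lower in M3, beside 2.76% of all genes in that fit. They were RPS27A, RPS29, RPS10, RPS23, RPS15A, RPS25, RPS4X, RPS7, RPS13 and RPS6. The lengths taken for RPS23 (3437 nt), RPS19 (2359 nt) and RPS27L (6434 nt) come from transcripts with coding parts of 429, 435 and 252 nt. Their corrected values (-1.21, -0.38 and -0.83) thus depend on that choice. The same holds for other members, such as RPS28 (1326 nt, coding 207 nt) and RPS26 (1272 nt, coding 345 nt). It also holds for RPS4X (1526 nt, coding 789 nt) and RPS6 (1387 nt, coding 747 nt), which are among the 10. How far length, RNA quality or the group sets the fall was not tested, and reads assigned to no feature, at 23.3% and 23.2% of the reads in WT 1 and WT 2 against 27.5% and 25.6% in M3 1 and M3 2, moved with it.

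**Figure D5:**
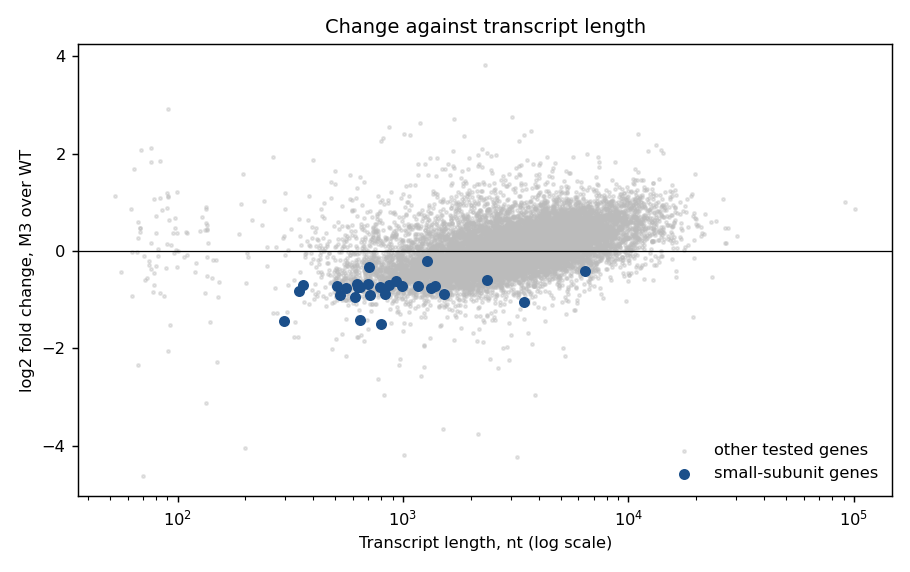
Each point is a tested gene (29 of the members are drawn), with transcript length (nt, log scale) on the x axis and log2 fold change of M3 over WT on the y axis, and small-subunit genes are in blue. Members lie mostly between 296 and 1526 nt and below 0, on the side of the cloud where other short transcripts also lie below 0.

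Several members carry small nucleolar RNAs, which guide the modification of ribosomal RNA, in their introns. In GENCODE 29, 19 snoRNA genes lie inside 9 members. Of these 9 host genes, among them RPS2, RPS3, RPS3A, RPS12, RPS13, RPS20 and RPSA, 5 were lower in M3, with a median of -0.72. Of the 24 members without a snoRNA gene 19 were lower, with a median of -0.77. Of all 33 members 72.7% were lower, beside 6.63% of all tested genes. The difference between hosts and other members was not tested. In 9 of the 33 members over 10% of exonic bases lie in another annotated gene, and all members but RPS27L have annotated pseudogenes, so reads can be shared. The 11 small-subunit pseudogenes in the tables held 340 to 701 reads in a library. Scaled to library size they were at 44.5, 33.3, 26.5 and 30.8 CPM in WT 1, WT 2, M3 1 and M3 2, so both M3 libraries lay below both WT libraries.

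Genes that work with the small subunit are counted here beside the 6.63% lower and 9.16% higher of all tested genes. In the fit with the length and GC correction, 377 of 13665 genes were lower (2.76%) and 328 were higher. Of 48 tested large-subunit genes 40 were lower and none higher, with a median of -0.81, led by RPL17 (-1.85 ± 0.38, at most 3.44 CPM), RPL38 (-1.14), RPL11 (-1.08) and RPL9 (-1.08). After the length and GC correction 21 were lower, with a median of -0.53. Among 32 tested genes of the mitochondrial small subunit 5 were lower and none higher (median -0.33), with MRPS2 (-0.88), MRPS21 (-0.68), MRPS26 (-0.66) and CHCHD1 (-0.66) at the front. Of 53 small-subunit assembly factors 7 were higher (13.2%) and 3 lower (5.66%), shares near those of all tested genes (median 0.02). WDR36 (0.92 ± 0.18), HEATR1 (0.75 ± 0.18) and UTP20 (0.72 ± 0.17), parts of the early nucleolar processome, and the helicase DDX52 (0.71 ± 0.17) rose. The fallen ones included TSR2 (-0.48 ± 0.13), the escort of RPS26 protein. The assembly factors had a median transcript of 2889 nt, and after the length and GC correction 1 was higher and 2 were lower.

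Initiation factors that bind the small subunit went partly with it. Of 30 tested 7 were lower and 2 higher (median -0.23). RACK1, a scaffold on the head that counts as a ribosomal protein in many lists, was at 2671, 1991, 1184 and 1269 CPM in WT 1, WT 2, M3 1 and M3 2 (-0.93 ± 0.18 SE; edgeR adjusted p = 0.0240). EIF3D (-0.63) and EIF3K (-0.62) fell, and the scanning factor EIF1AX rose (0.60). Of 15 other genes with TOP mRNAs 3 were lower and none higher (median -0.48): RACK1, the elongation factor subunits EEF1G (-0.83) and EEF1D (-0.95, at 7.40 to 17.4 CPM). EEF1A1, the TOP gene with the most reads, was at -0.38 ± 0.22 and did not pass. All 15 had values below 0. After the length and GC correction 6 of the 15 were lower, beside 2.76% of all genes in that fit, with a median of -0.45.

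Kinases and regulators upstream of the TOP mRNAs and of RPS6 were mixed. Of 17 genes 3 were higher and 2 lower (median 0.20). RPS6KA6 (0.94), RPS6KB1, the S6 kinase gene (0.78), and RPS6KA3 (0.63) rose. EIF4EBP1, an inhibitor of cap-dependent initiation (-0.63), and RPS6KB2 (-0.53) fell. MTOR (0.37 ± 0.14) and LARP1 (0.20 ± 0.13) did not pass. After the length and GC correction the kinase list held 1 gene higher and none lower, beside 328 higher and 377 lower of 13665 genes.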

How the data were processed

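Each library has 1 deposited table of raw counts (whole reads for each gene symbol, not normalised). The submitters' processing notes name HISAT2 2.1.0, HTSeq, DESeq2 and hg38. The sources used here give neither annotation nor strand setting, so sense and antisense reads cannot be told apart. Per the labels, cells grew in 10% serum and were taken at 50% confluency. The 5 summary values of each table stayed out of library sizes and tests.

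Groups came from the sample titles. The M3 against WT fit used edgeR 4.0.16 (R 4.3.3) on all 4 libraries without covariates: filterByExpr, TMM factors (0.916, 1.01, 1.05 and 1.04 in WT 1, WT 2, M3 1 and M3 2), robust quasi-likelihood F test, Benjamini-Hochberg adjustment. A standard error is the log2 fold change divided by the root of F. The relative fit set library sizes to the members' summed count. Length and GC trends were fitted in every library as splines (5 degrees of freedom) and used as offsets for the 13665 genes with a GENCODE 29 transcript (best-supported principal transcript of median length). Positions and start windows came from RefSeq GRCh38.p14, a release of the hg38 build. All 33 members matched RefSeq by symbol, and 26 had a start window.

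The members and lists were chosen with earlier results of these data known. Values by library are for members with the 8 largest falls, the 4 smallest changes, the 3 highest CPM or no call, and RPS27, RPS27L, RPS27A, RPS10 and FAU. Context lists are given by up to 4 changed genes. TSR2, RPS6KB2, EEF1A1, MTOR, LARP1 and the neuroblastoma markers named as lower were added after their values were seen. Counts cover all 33 members, but 4 members and some other genes are not reported here by name. Within both groups the libraries lay further apart than sampling noise (chi-square per degree of freedom 22.4 for WT and 4.45 for M3). On simulated data for M3 against WT (13967 genes), 93.0% of 200 genes changed by 1 on the log2 scale were recovered, with 9 false calls. Most members changed by less than that, with a median of -0.74, so this recovery does not tell how reliable their calls are. The alternatives were DESeq2 1.42.0, limma-voom (limma 3.58.1), other scaling and filters, the replicate block and leaving out libraries.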

Additional observations from a re-analysis of the deposited data

Results flagged for a closer look

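Reads outside the comparison were more frequent in M3 than in either WT library. Reads assigned to no feature made up 27.5% of counted reads in M3 1 and 25.6% in M3 2, beside 23.3% and 23.2% in WT 1 and WT 2.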

How the results depend on the processing

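Depth did not limit most members, which had over 650 reads in every library, but it did limit RPS10, RPS9 and RPS18. The count of 24 lower members was 3 to 33 and the median log2 fold change of -0.74 was -0.96 to -0.48 with a library left out, the lowest count without M3 1 (7 without M3 2) and the smallest median without WT 1. At an adjusted p below 0.01 the count was 0, and none of all 14141 tested genes was lower or higher there. With a library left out, the number of all tested genes called lower changed in the same order as the members' count. The swing and the 0 thus belong to the fits as a whole and are not particular to the members. The count of lower members was 10 with the length and GC trends removed (median -0.48, 377 lower of 13665 genes) and 11 with the replicate block added (median -0.48, 593 lower of 13665). It was also 10 with the shortest transcripts in that correction, an alternative added after seeing the data (373 lower of 13665). For every member the shortest transcript was the one already used. This alternative thus could not test the choice of length for a member. With the replicate block the count was 22 (873 lower of all 14141 genes) and the median -0.72. Other scaling, filters and tools gave 16 to 31. The 16 came with total-count scaling, where 264 of 14141 genes were lower and the median of all genes was 0.11. The 31 came with no filter, where 1880 of 20290 genes were lower. None of the settings of this comparison gave a higher member. RPS9 ranged from -0.69 to 0.079 with a library left out (0.079 without WT 1) and was at 0.15 with the trends removed, 0.16 with the block added and 0.15 with the shortest transcripts, and RPS26 ranged from -0.42 to 0.028 (0.028 without WT 1). Relative to the members' sum, the 2 lower genes were 0 with the replicate block, where 2 of all 14141 tested genes were lower. No member was higher with that block. The number of members passing also differed with a library left out. The causes were not tested. The deviations of WT 1 and M3 1 from their group means were only weakly correlated (-0.14 over tested genes, -0.09 over members). The labels do not say that the numbers mark pairs. With crossed pairing, added after seeing the data, 30 members were lower, as were 2520 of all 14141 tested genes.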

Other observations

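Some genes had reads mainly in WT 1, and each of the other libraries had such genes too. There the largest excess over the next highest library was 19.2-fold in WT 2, 7.60-fold in M3 1 and 10.8-fold in M3 2. KRT5 and KRT14, keratins of basal epithelium, had 72 and 36 reads in WT 1 and at most 2 in any other library. COL1A2, a fibroblast collagen, had 109 reads in WT 1, 0 in WT 2, 24 in M3 1 and 30 in M3 2. NTAN1 had 104 reads in WT 1 and 13, 11 and 8 in WT 2, M3 1 and M3 2. KRT5, KRT14 and NTAN1 were chosen after their values were seen.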
